A study of Mus musculus with 6 samples.

Results

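Genes of prostaglandin and leukotriene metabolism were followed in cultured primary mouse microglia by RNA-seq. The members were chosen by symbol, for their place in eicosanoid synthesis, breakdown and prostaglandin E2 reception, with earlier results of these data known. All 10 were found among the 41079 genes of the deposited count and FPKM tables. They were the cyclooxygenases Ptgs1 and Ptgs2, the terminal synthases Ptges and Hpgds, the degrading enzyme Hpgd, the leukotriene genes Alox5, Alox5ap and Ltc4s, and the receptors Ptger2 and Ptger4. Each passed the filter on low counts, the lowest count of a member in any library being 45.

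Microglia came from brains of C57Bl/6N mice aged 1 to 3 days and were shaken off mixed glial flasks that had received L-929 conditioned medium, a source of M-CSF. Brains of several pups shared a flask, and pups of both sexes were used in the study. The 3 control libraries came from cells in serum-free DMEM/F12. The 3 optimized libraries came from cells given human TGFbeta (TGF-β1 by the study's methods), human IL34 and CX3CL1 at 100 ng/mL each, and, by the methods of the study, also cholesterol and insulin-transferrin-selenium on collagen IV. The labels name the cytokines only. All cells, controls included, were kept with gentamicin and had a short exposure to serum while they adhered, and no library received 1 of the additions alone, so the additions cannot be told apart. Before they were shaken off, the cells had spent weeks in flasks with serum-containing medium, by the methods of the study. Which harvest was sequenced, and how long the cells then stayed in control or optimized medium, is not given in the sources used here. The study calls its 3 libraries per condition biological replicates, but nothing in the labels ties a library to its own flask. The p-values therefore measure the spread between these libraries.

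Count totals lay between 20628148 and 27261839 per library. Of 8 microglial markers, 7 were listed under the symbols used, and their summed level was 5879.5 to 5978.5 CPM (counts scaled by TMM to a common library size) in control and 10323 to 12029 CPM in optimized libraries. Mast cells are rich in Hpgds, Alox5 and Ltc4s, and of the 6 mast cell markers Mcpt4, Tpsb2 and Fcer1a had 0 counts in every library and the summed level of the list was at most 0.568 CPM. Of the 4 neutrophil markers, S100a9, Ly6g and Ngp were at 0 in every library and the list summed to 0.0874 to 0.22 CPM in control and 1.42 to 3.07 CPM in optimized libraries. None of the 4 fibroblast markers was at 0, and their sum was 21.0, 26.1 and 27.2 CPM in control libraries 1 to 3 and 35.7, 21.5 and 78.2 CPM in optimized libraries 1 to 3. The summed level of 5 border macrophage markers was 474 to 522 CPM in control and 261 to 367 CPM in optimized libraries, but of the 3 tested Mrc1 alone fell (330 to 62.7 CPM) while F13a1 (6.14 to 18.6 CPM) and Pf4 (157 to 227 CPM) rose. The summed level of 4 astrocyte markers was 27.2 to 29.0 CPM in control and 13.2 to 16.6 CPM in optimized libraries. Aldh1l1 alone of them was called lower (mean 16.5 to 4.64 CPM). Gfap (4.18 to 4.68 CPM), Aqp4 (1.63 to 1.42 CPM) and Slc1a3 (5.86 to 4.11 CPM) were not past the test. The sum of 4 oligodendrocyte markers was 96.8 to 102 and 114 to 143 CPM, most of it Mbp (mean 94.2 and 119 CPM). Mbp was called higher, and Olig2, Sox10 and Mog were not past the test. Among neuronal markers Nefl was called higher (mean 0.227 to 1.14 CPM), Rbfox3 and Map2 were not past the test, and Snap25 was not tested. The sums of 4 neuronal and 3 endothelial markers were at most 4.26 and 2.90 CPM. No marker of these cell types was at 0 throughout. Their part in the results was not tested. In such bulk samples, fewer cells of a type and less RNA per cell cannot be told apart.

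Eicosanoids are signalling lipids made from arachidonic acid that phospholipases release from membranes. Cyclooxygenases turn it into prostaglandin H2, from which terminal synthases make prostaglandin E2, prostaglandin D2 or thromboxane, while 5-lipoxygenase and its activating protein start the leukotriene branch. Microglia make and sense these lipids, and prostaglandin E2 acts on them through G protein-coupled receptors, of which those encoded by Ptger2 and Ptger4 raise cyclic AMP.

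Under the optimized conditions 6 of the 10 genes rose and 3 fell, while Ptgs2 was not past the test (edgeR's quasi-likelihood test, adjusted p under 0.05). The larger increases were those of Ptgs1 (6.12-fold), Ltc4s (3.59-fold), Alox5 (2.67-fold), Ptger2 (2.49-fold) and Alox5ap (2.14-fold), and Hpgd rose 1.28-fold. Ptges was 1.66-fold, Hpgds 1.46-fold and Ptger4 1.22-fold lower. Over all 14618 genes tested, 29.8% were called, 14.7% higher and 15.2% lower, against 9 of the 10 members. Of the calls over all genes 49.1% were higher, a share that went to 32.3% when TMM factors were left out. Control and optimized libraries did not overlap in 9 of the 10, as was the case for 43.9% of all genes tested. The median log2 fold change of the members was 0.72, beside 0.0079 for all genes tested. Because the members were chosen with earlier results of these data known, these comparisons with all genes are descriptive only.

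**Figure D1:**
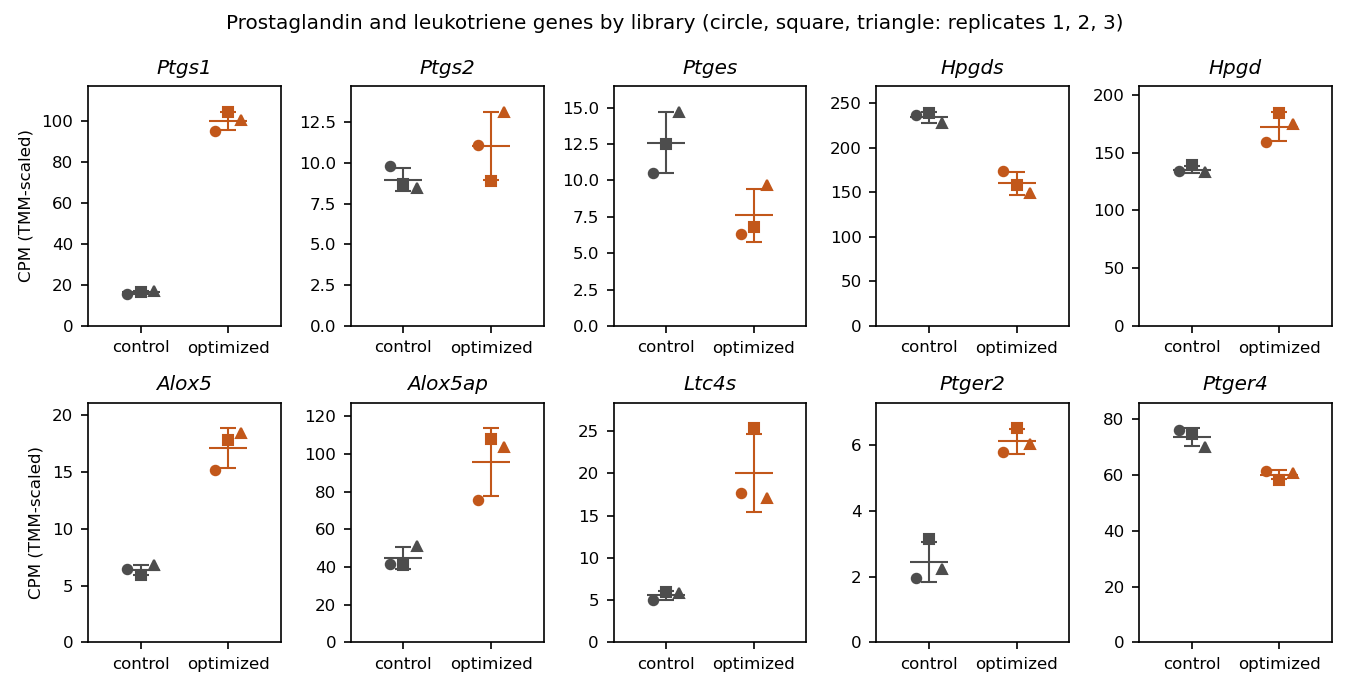
Level of each of the 10 genes in CPM (linear axes from 0) in 3 control and 3 optimized libraries, with replicates 1, 2 and 3 as circle, square and triangle, and group means with SD as bars. In 9 of the panels the libraries of the groups do not overlap, and in the panel of Ptgs2 they do.

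**Figure D2:**
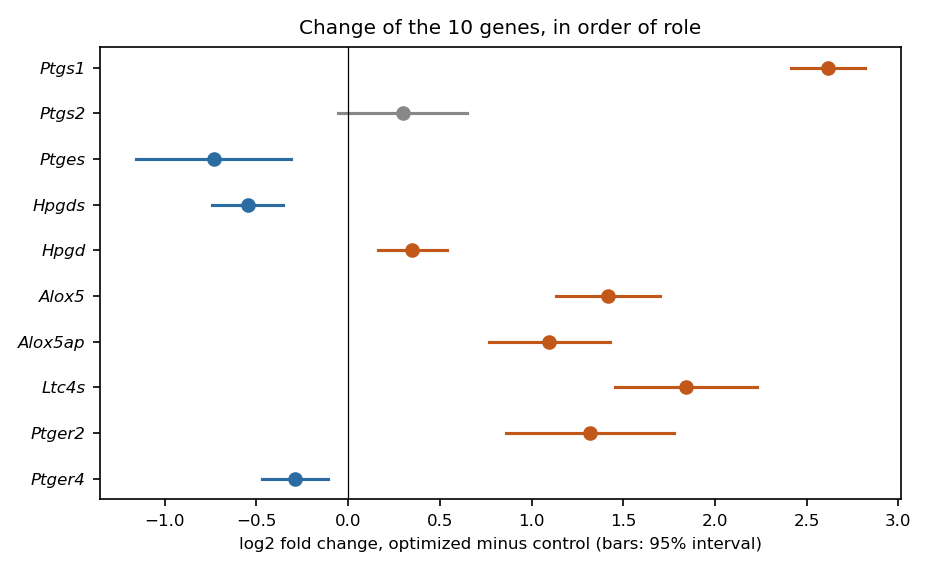
Log2 fold change of each gene, optimized minus control, with its 95% interval from edgeR's quasi-likelihood fit, ordered by role. Ptgs1 lies highest at 2.61, Ptges lowest at -0.73, and the interval of Ptgs2 includes 0.

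The cyclooxygenases take the committed step of prostanoid synthesis. Ptgs1, the form that most tissues express constitutively, lies on chromosome 2 of GRCm39 from 36120438 to 36142287 on the plus strand. It had 15.4, 16.4 and 17.2 CPM in control libraries 1 to 3 and 95.03, 104 and 101 CPM in optimized libraries 1 to 3. The groups lay far apart with little spread inside either. The mean went from 16.3 ± 0.89 to 99.9 ± 4.55 CPM (SD over 3 libraries), which edgeR put at 2.61 on the log2 scale with a standard error (SE) of 0.09 and an adjusted p of 5.5e-08. By fold change Ptgs1 was at rank 143 from the top of 14618 genes.

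Ptgs2, the form induced by inflammatory stimuli, lies on chromosome 1 from 149975194 to 149983978 on the plus strand. It had 9.79, 8.69 and 8.46 CPM in the control libraries and 11.1, 8.90 and 13.1 CPM in the optimized libraries. Optimized library 2 lay inside the control range and the remaining ones above it. The log2 fold change was 0.30 (95% interval -0.05 to 0.65, adjusted p = 0.19 by edgeR), so a rise of up to 0.65 on the log2 scale was within the error. The optimized library with the highest Ptgs2 was also the one with the highest sum of fibroblast markers, whose part was not tested. Without optimized library 3 the log2 fold change was 0.16, and without optimized library 2 it was 0.43 with an adjusted p of 0.044 (edgeR).

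Per length, the cyclooxygenase transcripts were close to each other in control cultures and far apart in optimized ones. The FPKM (the deposited level, scaled by transcript length and library) of Ptgs1 was 1.41, 1.68 and 1.82 times that of Ptgs2 in the control libraries and 7.64, 10.5 and 6.86 times in the optimized libraries. The log2 ratio rose by 2.30, with p = 0.1 in the two-sided exact permutation test and 0.12 after Benjamini-Hochberg adjustment over the 6 ratios computed. With 3 libraries against 3, 0.1 is the smallest p that this test can give.

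The promoters of both genes are shown because one transcript rose and the other was not past the test. They are the RefSeq windows from 250 bases before to 50 after the annotated start (table of build GRCm38.p6), found by exact match on GRCm39 at chr2:36120188-36120487 for Ptgs1 and chr1:149975532-149975831 for Ptgs2, both on the plus strand. The Ptgs2 window lies inside the GENCODE gene, which starts further upstream. Capitals mark matches, on either strand, to 9 short motifs. The GC box was searched as GGGCGG, the motif of the SMAD factors as CAGAC, and the core bound by PU.1 as GAGGAAG. The E box was searched as CACGTG, the site of the C/EBP factors as TTGCNNAA, and the box named for its letters as TATAAA. The remaining searches were for the AP-1 site as TGANTCA, for the cyclic AMP response element (CRE) as TGACGTCA, and for the NF-κB site as GGGANTTTC. No match in capitals overlaps another motif.

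Ptgs1: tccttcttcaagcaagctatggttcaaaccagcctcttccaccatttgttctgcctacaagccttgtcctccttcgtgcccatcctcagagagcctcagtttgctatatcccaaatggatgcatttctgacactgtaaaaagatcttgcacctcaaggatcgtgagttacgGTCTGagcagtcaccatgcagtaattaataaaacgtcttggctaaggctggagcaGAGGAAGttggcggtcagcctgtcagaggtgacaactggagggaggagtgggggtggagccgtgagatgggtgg
Ptgs2: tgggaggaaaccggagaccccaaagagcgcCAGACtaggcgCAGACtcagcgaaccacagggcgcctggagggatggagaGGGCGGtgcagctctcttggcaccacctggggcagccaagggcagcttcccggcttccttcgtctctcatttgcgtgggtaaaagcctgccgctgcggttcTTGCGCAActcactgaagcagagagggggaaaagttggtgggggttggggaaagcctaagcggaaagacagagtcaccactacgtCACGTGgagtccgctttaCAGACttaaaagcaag

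The Ptgs1 window held 1 PU.1 core, 24 bases before the start, and 1 SMAD motif on the minus strand. PU.1 is the lineage factor of myeloid cells. The Ptgs2 window held 3 SMAD motifs, 1 GC box, 1 C/EBP motif that reads on both strands, and 1 E box. The PU.1 core occurs in 13.6% of all 32851 RefSeq windows of this length, the SMAD motif in 49.6%, the GC box in 35.7%, the C/EBP motif in 10.8% and the E box in 7.15%. These are letter matches only, and no binding was measured.

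Both terminal synthases among the members were lower. Hpgds, the hematopoietic prostaglandin D synthase, is encoded on chromosome 6 from 65094001 to 65121983 on the minus strand. It had 237, 239 and 228 CPM in control and 174, 158 and 149 CPM in optimized libraries 1 to 3. Every optimized library lay below every control library, and the mean went from 235 ± 6.08 to 160 ± 12.8 CPM (SD over 3 libraries). Hpgds fell by 0.55 on the log2 scale with SE 0.09 (edgeR, adjusted p = 0.00092). Its level per length was at percentile 93.0 in control of the genes tested and at percentile 89.9 in optimized cultures.

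Ptges, the microsomal prostaglandin E synthase that is often induced together with Ptgs2, lies on chromosome 2 from 30779483 to 30820196 on the minus strand. It had 10.5, 12.5 and 14.7 CPM in control and 6.30, 6.81 and 9.67 CPM in optimized libraries. The highest optimized library was a little under the lowest control library. The log2 fold change was -0.73 (95% interval -1.15 to -0.31, adjusted p = 0.015 by edgeR). The call was lost without control library 2 (adjusted p = 0.055) or control library 3 (adjusted p = 0.062), and the fold change was -0.94 without optimized library 3, where fibroblast markers were highest. The other enzymes that can make prostaglandin E2, Ptges2 and Ptges3, were at 11.6 and 81.0 CPM in control and 11.8 and 69.4 CPM in optimized cultures, with adjusted p-values of 0.94 and 0.082 (edgeR). Ptges3 was past the threshold under 5 alternatives, among them library size alone (log2 fold change -0.35, adjusted p = 0.017 by edgeR). The FPKM of Ptges was 0.0522, 0.0613 and 0.0757 times that of Hpgds in control and 0.0424, 0.0505 and 0.0761 times in optimized libraries. These ratios overlapped, with a log2 difference of -0.16 and p = 0.7 (two-sided exact permutation test), so a shift between the pair was not detectable here.

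The Hpgds promoter is shown as that of a gene of high level that fell. The window was matched at chr6:65121665-65121964 of GRCm39 on the minus strand, with the same marking. Like that of Ptgs2 it lies inside the GENCODE gene, which starts further upstream, so positions count from the RefSeq start.

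Hpgds: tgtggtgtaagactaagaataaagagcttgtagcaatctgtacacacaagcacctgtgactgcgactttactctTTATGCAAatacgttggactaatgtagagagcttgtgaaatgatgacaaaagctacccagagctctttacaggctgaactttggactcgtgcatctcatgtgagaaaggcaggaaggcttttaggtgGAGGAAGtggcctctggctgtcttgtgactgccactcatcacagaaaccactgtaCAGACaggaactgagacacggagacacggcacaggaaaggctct

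It held 1 PU.1 core 49 bases before the start, 1 SMAD motif and 1 C/EBP motif. The PU.1 core was therefore found both in a member that rose and in one that fell.

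Hpgd encodes the dehydrogenase that inactivates prostaglandins by oxidation. It lies on chromosome 8 from 56747543 to 56774082 on the plus strand, and its transcript had the highest mean level per length of all 10 in both groups, although Alox5ap was above it in optimized library 3. It had 134, 139 and 133 CPM in control and 159, 184 and 175 CPM in optimized libraries 1 to 3. The groups did not overlap, but the step between them was small. The mean went from 135 ± 3.06 to 173 ± 12.8 CPM (SD over 3 libraries), up by 0.35 on the log2 scale with SE 0.08 (edgeR, adjusted p = 0.011). The call depended on the scaling. With library size alone, a setting that moved the median of all genes to -0.12, the log2 fold change of Hpgd was 0.22 with an adjusted p of 0.069 (edgeR), and without control library 3 the adjusted p was 0.052.

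The ratio of this transcript to that of Ptgs1 moved more than Hpgd itself. The FPKM of Hpgd was 24.8, 24.2 and 22.2 times that of Ptgs1 in control libraries and 4.77, 5.05 and 4.95 times in optimized libraries. The log2 ratio fell by 2.23 (p = 0.1, two-sided exact permutation test, the smallest possible).

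All 3 leukotriene members rose. Alox5, 5-lipoxygenase, oxidizes arachidonic acid to the precursor of the leukotrienes and lies on chromosome 6 from 116387032 to 116438139 on the minus strand. It had 6.43, 5.95 and 6.85 CPM in control and 15.2, 17.8 and 18.4 CPM in optimized libraries 1 to 3. The lowest optimized library was well above the highest control library. Alox5 rose by 1.42 on the log2 scale with SE 0.13 (edgeR, adjusted p = 2.1e-05).

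Neutrophils also express Alox5. Of the 4 neutrophil markers S100a8 alone was higher in the same libraries (mean 0.157 to 1.98 CPM, at most 3.07 CPM), with the other 3 at 0 in every library. The part of neutrophils in the rise was not tested.

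Alox5ap encodes the membrane protein that presents arachidonic acid to 5-lipoxygenase. It lies on chromosome 5 from 149196003 to 149227762 on the plus strand. It had 41.9, 41.2 and 51.4 CPM in control and 75.4, 108 and 104 CPM in optimized libraries. Optimized library 1 stood below the other two, and still above every control library. The rise was 1.10 on the log2 scale with SE 0.15 (edgeR, adjusted p = 0.00031). Per length, Alox5ap exceeded Alox5 by 20.0, 21.2 and 23.0 times in control and by 15.3, 18.7 and 17.3 times in optimized libraries. The log2 ratio with a pseudocount of 0.1 was 0.29 lower in optimized libraries, without overlap (p = 0.1, two-sided exact permutation test), but with a pseudocount of 1 the difference was -0.040 (p = 0.8, same test), so the shift depended on that choice.

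Ltc4s, leukotriene C4 synthase, joins glutathione to leukotriene A4 and so opens the cysteinyl leukotriene branch. It lies on chromosome 11 from 50127288 to 50129443 on the minus strand. It had 4.98, 5.91 and 5.82 CPM in control and 17.6, 25.3 and 17.1 CPM in optimized libraries 1 to 3. Optimized library 2 was the highest, and the other two were close to each other. The mean went from 5.57 ± 0.51 to 20.0 ± 4.62 CPM (SD over 3 libraries), a rise of 1.84 on the log2 scale with SE 0.17 (edgeR, adjusted p = 3.0e-05).

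Lta4h, which turns leukotriene A4 into leukotriene B4 instead, had 48.3 ± 3.22 and 50.2 ± 1.35 CPM (SD over 3 libraries) and was not past the test, with a log2 fold change of 0.056 (95% interval -0.14 to 0.25, adjusted p = 0.68 by edgeR). Its sign turned to -0.072 with library size alone. The FPKM of Ltc4s was 0.327, 0.356 and 0.335 times that of Lta4h in control and 1.06, 1.45 and 0.996 times in optimized libraries. The transcripts of these branch enzymes thus went from unequal to similar levels per length, a log2 difference of 1.75 (p = 0.1, two-sided exact permutation test).

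The promoters of Alox5 and Ltc4s are shown as members of 1 branch that rose together, and Alox5ap has no sequence here. Both windows lie on the minus strand of GRCm39, at chr6:116438090-116438389 for Alox5 and chr11:50129310-50129609 for Ltc4s. The GENCODE gene of Ltc4s also starts upstream of the RefSeq start, inside the window.

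Alox5: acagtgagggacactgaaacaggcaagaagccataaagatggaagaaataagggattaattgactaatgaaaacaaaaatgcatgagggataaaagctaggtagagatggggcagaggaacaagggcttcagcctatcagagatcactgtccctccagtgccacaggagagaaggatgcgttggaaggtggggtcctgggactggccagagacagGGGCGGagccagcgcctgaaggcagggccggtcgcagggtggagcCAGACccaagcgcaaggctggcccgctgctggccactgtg
Ltc4s: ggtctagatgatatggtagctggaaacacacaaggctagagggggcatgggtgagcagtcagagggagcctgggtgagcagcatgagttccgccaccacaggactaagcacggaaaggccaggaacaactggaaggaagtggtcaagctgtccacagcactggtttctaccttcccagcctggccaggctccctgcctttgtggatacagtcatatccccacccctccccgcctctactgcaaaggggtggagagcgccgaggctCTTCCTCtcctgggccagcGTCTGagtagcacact

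The Alox5 window held 1 GC box 35 bases before the start and 1 SMAD motif. The Ltc4s window held 1 PU.1 core and 1 SMAD motif, both on the minus strand and after the start, and no GC box. The SMAD motif was the one motif that both shared. It was in 8 of the 9 members with a window and in 49.6% of all windows. These 8 include members that rose, fell or were not past the test. TATAAA was in 1 of the 9 windows (Hpgd) and in 13.6% of all windows, while the AP-1, CRE and NF-κB letters, in 7.81%, 1.79% and 1.11% of all windows, had no match in the 9.

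The prostaglandin E2 receptors among the members went in opposite directions. Ptger2, the EP2 receptor, lies on chromosome 14 from 45225652 to 45241277 on the plus strand and was the lowest of the 10 genes per length. It had 45, 77 and 61 counts, or 1.97, 3.14 and 2.23 CPM, in control and 122, 153 and 125 counts, or 5.78, 6.51 and 6.05 CPM, in optimized libraries. The optimized libraries were tightly grouped above all controls. The increase was 1.32 on the log2 scale with SE 0.20 (edgeR, adjusted p = 0.00080). On the log2(FPKM + 1) scale, which understates low genes, it was 0.55.

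Ptger4, the EP4 receptor, lies on chromosome 15 from 5236142 to 5273673 on the minus strand. It had 76.0, 74.8 and 70.0 CPM in control and 61.5, 58.3 and 60.8 CPM in optimized libraries 1 to 3. The groups did not overlap, with a small step down. The log2 fold change was -0.29 (95% interval -0.47 to -0.11, adjusted p = 0.021 by edgeR). The call was lost without control library 1 (adjusted p = 0.086), control library 2 (0.080) or optimized library 3 (0.068), and the fold change kept its sign in each. Its exons share 229 of 6653 bases with Ttc33 on the opposite strand, so a few reads could belong to either gene.

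Ptger4 stayed the more abundant of the receptors. Its FPKM was 49.9, 30.8 and 40.5 times that of Ptger2 in control and 13.7, 11.6 and 13.0 times in optimized libraries. The log2 ratio fell by 1.50 (p = 0.1, two-sided exact permutation test, 0.12 after adjustment over the 6 ratios).

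**Figure D3:**
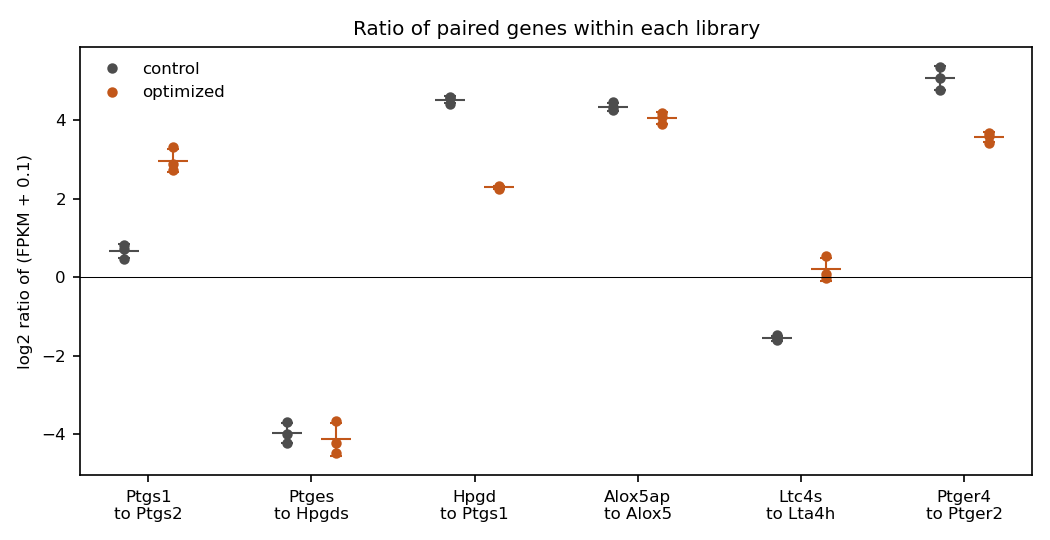
Log2 ratio of (FPKM + 0.1) between paired genes within each of the 3 control and 3 optimized libraries (points), with group means and SD. With this pseudocount the libraries separate for every pair except Ptges to Hpgds, while with a pseudocount of 1 the difference for Alox5ap to Alox5 is -0.040 (exact permutation p = 0.8), and Hpgd to Ptgs1 has the least spread in optimized cultures.

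In order of level per length, control cultures had Hpgd (80.1 ± 4.29 FPKM), Hpgds (55.8 ± 3.44), Alox5ap (44.8 ± 3.97), Ptger4 (22.5 ± 1.75), Ltc4s (8.06 ± 0.71), Ptges (3.50 ± 0.47), Ptgs1 (3.38 ± 0.11), Alox5 (2.09 ± 0.087), Ptgs2 (2.08 ± 0.22) and Ptger2 (0.58 ± 0.16; SD, n = 3 each, in FPKM). Ptges and Ptgs1 overlapped, as did Alox5 and Ptgs2. In optimized cultures the order was Hpgd (92.5 ± 3.77 FPKM), Alox5ap (86.9 ± 13.9), Hpgds (34.7 ± 3.66), Ltc4s (26.1 ± 4.88), Ptgs1 (18.8 ± 0.36), Ptger4 (16.7 ± 1.16), Alox5 (5.08 ± 0.45), Ptgs2 (2.33 ± 0.51), Ptges (1.92 ± 0.48) and Ptger2 (1.31 ± 0.026). Here Hpgd and Alox5ap overlapped, and so did Ptgs2 and Ptges. Ptgs1 moved from percentile 41.8 to 81.8 of the genes tested by FPKM, Ltc4s from 61.0 to 86.7 and Alox5 from 33.1 to 52.4, while Ptges moved from 42.6 to 32.8.

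**Figure D4:**
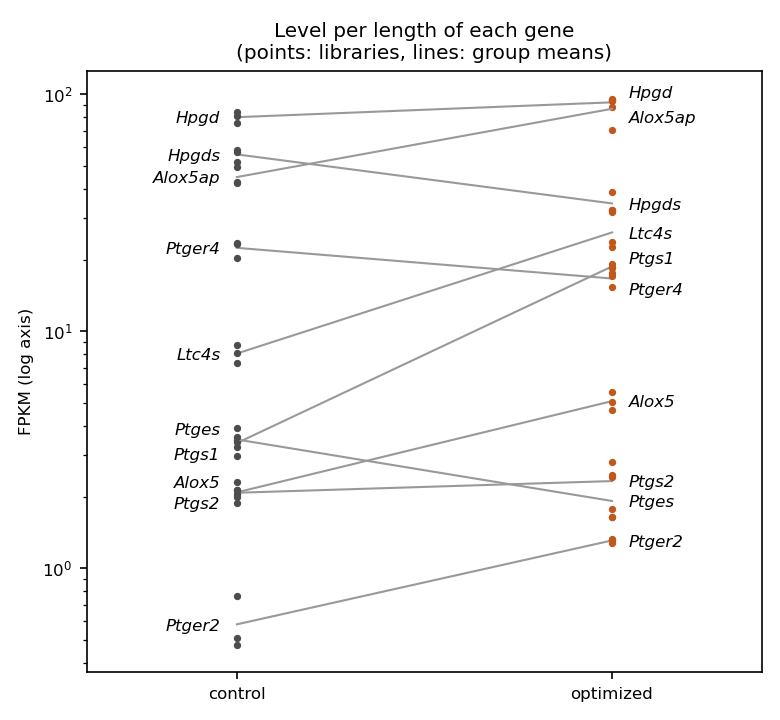
FPKM (log axis) of the 10 genes in control and optimized libraries, with points for single libraries and lines joining group means. The lines of Ptgs1 and Ltc4s climb past that of Ptger4, and that of Alox5ap climbs past that of Hpgds.

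A further list held 61 other genes of eicosanoid metabolism and reception, of which 38 had enough counts to test. Of these, 7 rose and 9 fell (42.1% called, against 29.8% of all genes tested), and the median log2 fold change was 0.0048. The genes went both ways within most steps of the pathway, as did all genes tested (14.7% higher and 15.2% lower). By step, 25% to 42.9% of the tested genes were called, apart from 83.3% of the 6 that return arachidonic acid to lipids. This list too was chosen with earlier results of these data known, so its share is descriptive only.

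Among 7 tested genes of arachidonate release, 2 rose and 1 fell. Pla2g4a, the cytosolic phospholipase A2 that supplies the cyclooxygenases, had 58.2 ± 2.33 and 52.8 ± 4.22 CPM (SD over 3 libraries) and was not past the test (log2 fold change -0.14, adjusted p = 0.29 by edgeR). Mgll, monoacylglycerol lipase, a supplier of arachidonic acid in brain, fell from 13.9 ± 0.29 to 3.79 ± 0.17 CPM (SD over 3 libraries), or by 1.88 on the log2 scale (adjusted p = 2.6e-06 by edgeR). Pla2g12a, a secreted phospholipase A2, rose with a log2 fold change of 0.91. Of 6 genes that return arachidonic acid to lipids, 2 rose and 3 fell, from Acsl3 (-0.72) to Lpcat3 (0.66), whose exons overlap those of Emg1 on the opposite strand over 4277 bases.

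Among 6 tested prostanoid synthases beside the members, 1 rose and 1 fell. Tbxas1, thromboxane A synthase, had 144, 135 and 150 CPM in control and 202, 260 and 249 CPM in optimized libraries, a log2 fold change of 0.73 (adjusted p = 0.00060 by edgeR). Prxl2b, a prostamide and prostaglandin F synthase, fell from 27.4 ± 1.35 to 8.62 ± 2.74 CPM (SD over 3 libraries), or by 1.66 on the log2 scale. Ptgds, the lipocalin-type prostaglandin D synthase, had 25, 23 and 32 counts in control and 15, 22 and 83 counts in optimized libraries. Its high value came from optimized library 3 alone, the library with the most fibroblast marker reads, whose part was not tested. Its log2 fold change of 0.81 (adjusted p = 0.35 by edgeR) turned to -0.37 without that library.

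In the leukotriene list, 1 of 6 tested genes rose and 1 fell. Mgst2, a microsomal glutathione transferase that can also make leukotriene C4, had 9, 8 and 10 counts in control and 22, 22 and 26 counts in optimized libraries (log2 fold change 1.56, standard error 0.35, adjusted p = 0.0069 by edgeR). Dpep2, a dipeptidase that trims leukotriene D4, fell from 46.3 ± 6.76 to 16.1 ± 2.53 CPM (SD over 3 libraries), or by 1.52 on the log2 scale. In breakdown and transport, 1 of 9 rose and 2 fell. Cyp4f18, which hydroxylates leukotriene B4, had 3.50, 2.08 and 2.93 CPM in control and 44.7, 50.9 and 51.1 CPM in optimized libraries. Its log2 fold change of 4.11 with SE 0.17 (edgeR, adjusted p = 1.5e-07) was the largest in the list. Its exons share 410 bases with Zfp961 on the opposite strand, which was not past the test (adjusted p = 0.58 by edgeR). Abcc1, an exporter of leukotriene C4, fell from 155 ± 12.1 to 79.1 ± 12.3 CPM (SD over 3 libraries), or by 0.97 on the log2 scale.

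Of 12 other eicosanoid receptors, 4 had enough counts, and Cysltr1 was the one called. Cysltr1, a receptor for cysteinyl leukotrienes, had 24.4, 29.0 and 21.3 CPM in control and 14.8, 13.2 and 14.8 CPM in optimized libraries. It fell by 0.81 on the log2 scale with SE 0.13 (edgeR, adjusted p = 0.00096), while the synthase of its ligands, Ltc4s, rose. Ptger3, the EP3 receptor, had 2 counts in control library 2 and 0 in the other libraries, and Ltb4r1, a leukotriene B4 receptor, had 1 count in 2 libraries and 0 in the others. A count of 0 allows up to 3 counts, or 0.11 to 0.145 CPM before scaling, by counting error alone. Ptgdr2, a prostaglandin D2 receptor, had the highest fold change of the 4 at 0.12 (adjusted p = 0.78 by edgeR), with 1031 exon bases shared with the more abundant Ccdc86 on the opposite strand.

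**Figure D5:**
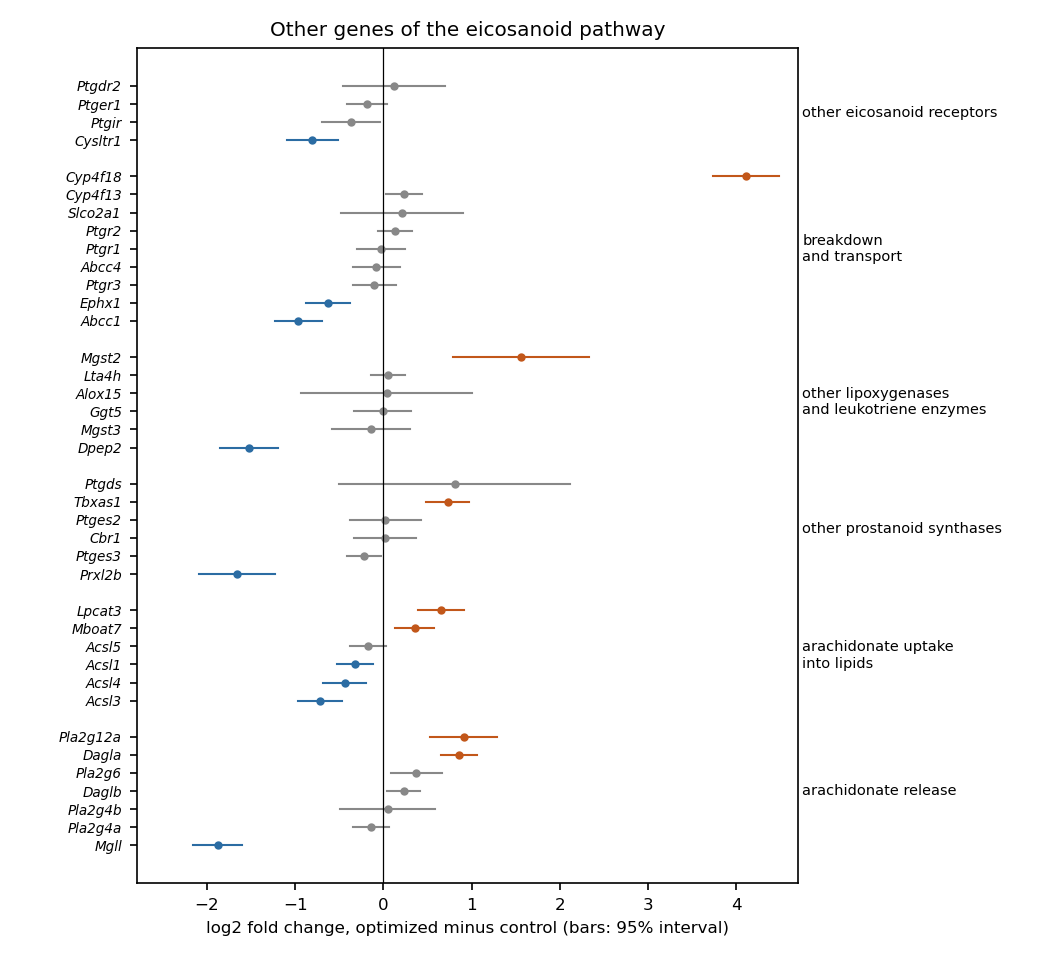
Log2 fold change, optimized minus control, with 95% interval for the 38 tested genes of the wider pathway, grouped by step. Orange points rose, blue points fell and grey points were not past the test, with Cyp4f18 at 4.11 and Mgll at -1.88 as the extremes.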

How the data were processed

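Microglia in control and optimized cultures were profiled by paired-end RNA-seq. The authors mapped reads to mm39 with HISAT2 and deposited raw counts from featureCounts and, in a second table, FPKM values. Tool versions, gene annotation, strand setting and the treatment of reads on overlapping genes are not given in the sources used here. The deposited FPKM values were the counts divided by a constant per gene and a constant per library.

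Samples were grouped by their titles and columns were matched by the names in the descriptions. Counts were analysed with edgeR 4.0.16 in R 4.3.3 (filterByExpr, TMM, glmQLFit, glmQLFTest), with Benjamini-Hochberg adjustment over 14618 genes and a threshold of 0.05. The standard error is the size of the log2 fold change divided by the square root of F. The biological coefficient of variation was 0.128, and libraries of a group differed by more than counting noise. Ratios used log2(FPKM + 0.1) and an exact permutation test (scipy 1.17.1). Alternatives were RLE factors, library size alone, DESeq2 1.42.0, other filters on low counts, a gene length spline, the replicate block, single libraries left out, and limma 3.58.1 on FPKM with a pseudocount of 0.1 or 1. The edgeR, limma and DESeq2 fits between the groups were tested on simulated counts. The ratios, the permutation test, the gene length spline, the replicate block and the motif search were not.

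Members and lists were chosen with earlier results of these data known. Named beside the members were, from the wider list, Pla2g4a, Tbxas1, Ptgds, Ptges2, Ptges3, Lta4h, Cysltr1, Ltb4r1, Ptger1 and Ptger3 and the highest and lowest fold change of each step. The values of Ptger1 are not reported here. Coordinates are from GENCODE M39 on GRCm39, and 9 of the 10 members matched a RefSeq promoter window.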

Additional observations from a re-analysis of the deposited data

How the results depend on the processing

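All 159 fold changes of the members computed under the alternatives kept their direction, and Ptgs1, Hpgds, Alox5, Alox5ap, Ltc4s and Ptger2 kept an adjusted p under 0.05 in each that was run for them. Hpgd was not past the threshold with library size alone (0.22) or with limma on log2(FPKM + 1) (0.21), on log2(FPKM + 0.1) (0.21) or after dropping genes whose average FPKM was under 1 (0.21), settings under which the median of all genes moved to between -0.16 and -0.087. With single libraries left out, between 1 and 3 members were lower and between 5 and 7 higher, and the log2 fold change of Hpgd was 0.29 to 0.41, that of Ptges -0.94 to -0.61, that of Ptger4 -0.33 to -0.27 and that of Ptgs2 0.16 to 0.43. Members lower numbered 1 without control replicate 2, when Ptges and Ptger4 were not past the threshold, against 3 in all libraries. In the wider list, 6 to 9 genes were higher and 7 to 10 lower with a library left out. The calls over all 14618 genes tested moved as well, to 1607 to 2580 higher and 1642 to 2638 lower with a library left out. In all libraries they were 2142 higher and 2218 lower, and without control replicate 2 they were 1607 and 1642.

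The log2 ratio of Ptges to Hpgds turned to 0.047 with FPKM + 1 and ranged from -0.39 to 0.021 with single libraries left out. With FPKM + 1 that of Alox5ap to Alox5 was -0.040 (exact permutation p = 0.8) and that of Ptger4 to Ptger2 -0.96 in place of -1.50. Ptges3 passed the threshold with library size alone (-0.35), with the gene length trend removed (-0.20) and with limma on FPKM (-0.36 to -0.35). Among genes past no test, Lta4h was at -0.072 with library size alone and at -0.078, -0.081 and -0.081 with limma on FPKM. Ptges2 was at -0.11, -0.099, -0.12 and -0.12 under the same settings and at -0.098 to 0.17 without single libraries. Ptgdr2 was at -0.019, -0.013 and -0.038, and at -0.12 to 0.29 without single libraries. Ptgds ranged from -0.37 to 1.19. The causes were not tested.

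The labels do not state that libraries with the same replicate number share a culture, so the main fit had no block. In their deviations from the group means, such libraries correlated by 0.27, -0.012 and 0.18. Libraries with differing numbers correlated by -0.29 to 0.19, so these values do not settle whether the samples were paired. With the replicate block, the log2 fold changes of the members differed little (Ptgs1 2.61, Ptges -0.74, Hpgd 0.35, Ptger4 -0.29) and no member changed its call. In the wider list 8 genes rather than 7 were higher with the block and 9 were lower. Over all genes tested, 4924 were called with the block and 4360 without it. For the ratios the block could not change the direction, because the mean of paired differences equals the difference of group means. An exact sign-flip test over replicate numbers gave p = 0.25 for each ratio except Ptges to Hpgds (p = 0.5). Ptger2, the lowest member, had 45 to 77 counts in control libraries, which limits the precision of its level.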
